A study of Mus musculus with 15 samples.

Results

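The genes described here encode enzymes and carriers that take glucose to pyruvate and lactate, move pyruvate and cytosolic NADH into mitochondria, and run the citric acid cycle. They were chosen by symbol, as a list of 42 genes of these pathways that had to be present in the authors' filtered count table, whose rule is a mean count of at least 10 over the libraries. All 42 symbols were present. Aldoa has 2 gene entries in the table, so the members are 43 gene entries of 16610 in the filtered table and of 55536 in the whole table. All 43 also passed the expression filter used for testing, which left 17455 genes.

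RNA of sorted Pcm1(+) nuclei from mouse ventricular muscle was sequenced after depletion of ribosomal RNA. Pcm1 is a protein of centriolar satellites, and an antibody to it is used to sort cardiomyocyte nuclei. The 15 libraries carry the genotype label Pgr_KO in 4 female and 4 male libraries, and Pgr_WT in 3 female and 4 male libraries, and are called KO-labelled and WT-labelled below. Pgr encodes the progesterone receptor, and the series concerns its sex-specific role in heart maturation. The labels name no allele, promoter, Cre line, strain background or treatment. The tissue label of all 4 groups holds the numbers 3 and 6 with no unit or explanation. Replicates are not said to come from separate animals, so each p-value measures the spread between these samples, which may be technical.

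Glycolysis splits glucose into pyruvate in the cytosol, with hexokinase, phosphofructokinase and pyruvate kinase as its controlled steps. Pyruvate is either reduced to lactate or carried into mitochondria, where the pyruvate dehydrogenase complex turns it into acetyl-CoA for the citric acid cycle. The heart before birth draws much of its energy from glucose and lactate, and the adult heart mostly from fatty acids, so several steps have a muscle or heart isozyme that gains over a more widespread one as the heart matures.

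Sequencing depth was 24.4 to 139 M counts a library. Pgr reads ran against the genotype labels: Pgr stood at 8.69 to 12.5 normalised counts (CPM) in the KO-labelled female libraries and 6.10 to 7.15 CPM in the KO-labelled male libraries, against 0 to 0.267 and 0 to 0.166 CPM in the WT-labelled female and male libraries. Directions below therefore follow the labels and say nothing of which libraries lack the receptor. As a check of the labelled cell type, all 10 cardiomyocyte markers were detected in every library, with a summed level of 43789.7 to 74235 CPM. In 6 libraries (replicates 1 and 2 of both KO-labelled groups and replicate 1 of both WT-labelled groups) 10 endothelial markers summed to 337 to 702 CPM, and in the other 9 to 21.2 to 76.5 CPM (called high-marker and low-marker libraries below), and 10 fibroblast markers summed to 878 to 2172 against 69.5 to 307 CPM. All 20 of these markers were detected in every library. In addition, 3 libraries (KO-labelled female replicate 2, WT-labelled female replicate 2 and WT-labelled male replicate 2) held reads of genes specific to the other sex, and are called the mixed-sex libraries below. Counts over the members and the 5 estimates named in each comparison are given with and without them.

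Counts were taken over whole gene bodies, introns included, so levels of different genes are compared here only as CPM per kb of gene body. On that scale the most abundant member was Eno3, the muscle enolase, with a median of 19.9 CPM per kb and a range over the 15 libraries of 12.2 to 24.01. Aldoa, the muscle aldolase, followed at 16.8 CPM per kb, with Idh3b, a regulatory subunit of the NAD-dependent isocitrate dehydrogenase, at 15.5 and Mdh1, the cytosolic malate dehydrogenase, at 14.97. Gapdh, Ogdh and Ldhb lay beside them at 14.7, 14.7 and 14.5 CPM per kb. The ranges of these 7 genes overlapped, so their order does not exceed the spread between libraries. At the other end stood Gpd2, the mitochondrial glycerol phosphate dehydrogenase, at 0.186 CPM per kb, Pfkfb2, the heart form of the enzyme that sets the level of a phosphofructokinase activator, at 0.0989, and the 2nd Aldoa entry at 0.0539. The ranges of these 3 genes were 0.165 to 0.232, 0.0575 to 0.150 and 0.0183 to 0.0800 CPM per kb, so that Gpd2 lay apart from the other two. Without division by length Ogdh, a subunit of the oxoglutarate dehydrogenase complex of the cycle, took the most reads of the members, at 633 to 1404 CPM. Together the members held 0.430 to 0.541 percent of all counts, with 0.430 to 0.506 and 0.464 to 0.537 percent in the KO-labelled female and male libraries and 0.471 to 0.541 and 0.439 to 0.528 percent in the WT-labelled ones.

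**Figure D1:**
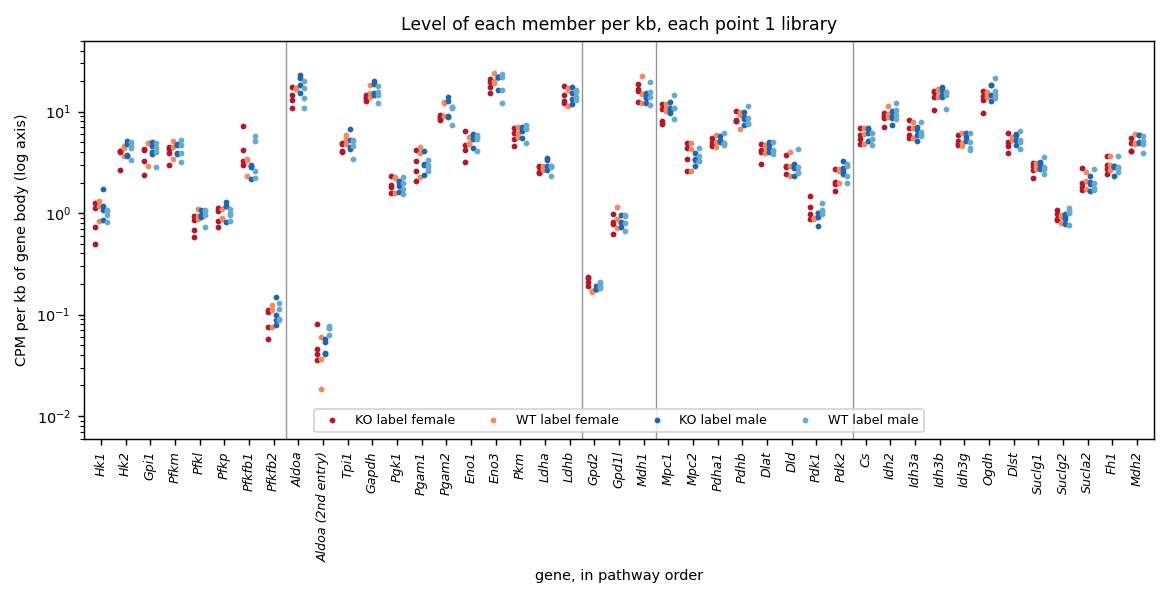
Level of each of the 43 members in CPM per kb of gene body on a log axis, in pathway order, with 1 point per library and 1 colour per label group; vertical lines separate the roles. Levels spread from 0.0183 to 0.0800 CPM per kb for the 2nd Aldoa entry to 12.2 to 24.01 CPM per kb for Eno3.

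Several steps have paralogues, and in 5 families the muscle or heart isozyme led in each library. Hk2, the insulin-regulated muscle hexokinase, made up 75.1% to 84.8% of the summed Hk1 and Hk2 level per kb, while Hk1, the widespread hexokinase, held the rest. Pfkm, the muscle phosphofructokinase, held 63.4% to 73.7% of the level of the 3 phosphofructokinase genes, ahead of the liver form Pfkl at 12.0% to 16.9% and the platelet form Pfkp at 11.9% to 20.4%. Pgam2, the muscle phosphoglycerate mutase, held 68.5% to 81.1% against Pgam1, and Eno3 held 73.9% to 82.7% against the widespread enolase Eno1. Ldhb, the heart form of lactate dehydrogenase, held 79.6% to 86.4% against the muscle form Ldha. In these 5 families the shares of the label groups overlapped, except that of Pfkl in females. It was 12.0% to 14.7% in KO-labelled and 14.8% to 16.3% in WT-labelled female libraries, a gap that was not tested. The widest spread was between the 2 members among the kinases that switch off pyruvate dehydrogenase, where, with the non-member kinases such as Pdk4 left out, Pdk2 held 57.8% to 81.4% and Pdk1 18.6% to 42.2%. Pdk1 had 35.2% ± 7.56 of the pair in KO-labelled females and 27.0% ± 3.23 in WT-labelled females, against 25.0% ± 4.70 in KO-labelled males and 30.0% ± 3.53 in WT-labelled males (SD, n = 4, 3, 4 and 4). The shares rest on gene-body reads and on gene length, and transcripts were not measured one by one.

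Libraries differed from each other across many members at once. The KO-labelled female replicate 2 held the lowest value of all 15 libraries for 19 of 43 members, and the WT-labelled male replicate 2 for 10. The WT-labelled male replicate 3 held the highest value for 10 members. Relative to each gene's own median over the 15 libraries, the members of the KO-labelled female replicate 2 had a median log2 deviation of -0.30, and its 8 genes from glucose to fructose bisphosphate one of -0.65. The WT-labelled male replicate 2 had -0.26 over all members. Both libraries are among the 3 mixed-sex libraries. The remaining mixed-sex library, the WT-labelled female replicate 2, had a median of 0.0, with 21 members above and 20 below their own medians. The KO-labelled female replicate 2 also had the lowest summed level of cardiomyocyte markers, 43790 CPM, and the highest endothelial and fibroblast levels, 702 and 2172 CPM. Whether these levels have a part in the low values of the members was not tested. In bulk nuclei, fewer cells of a type and less RNA per nucleus cannot be told apart.

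**Figure D2:**
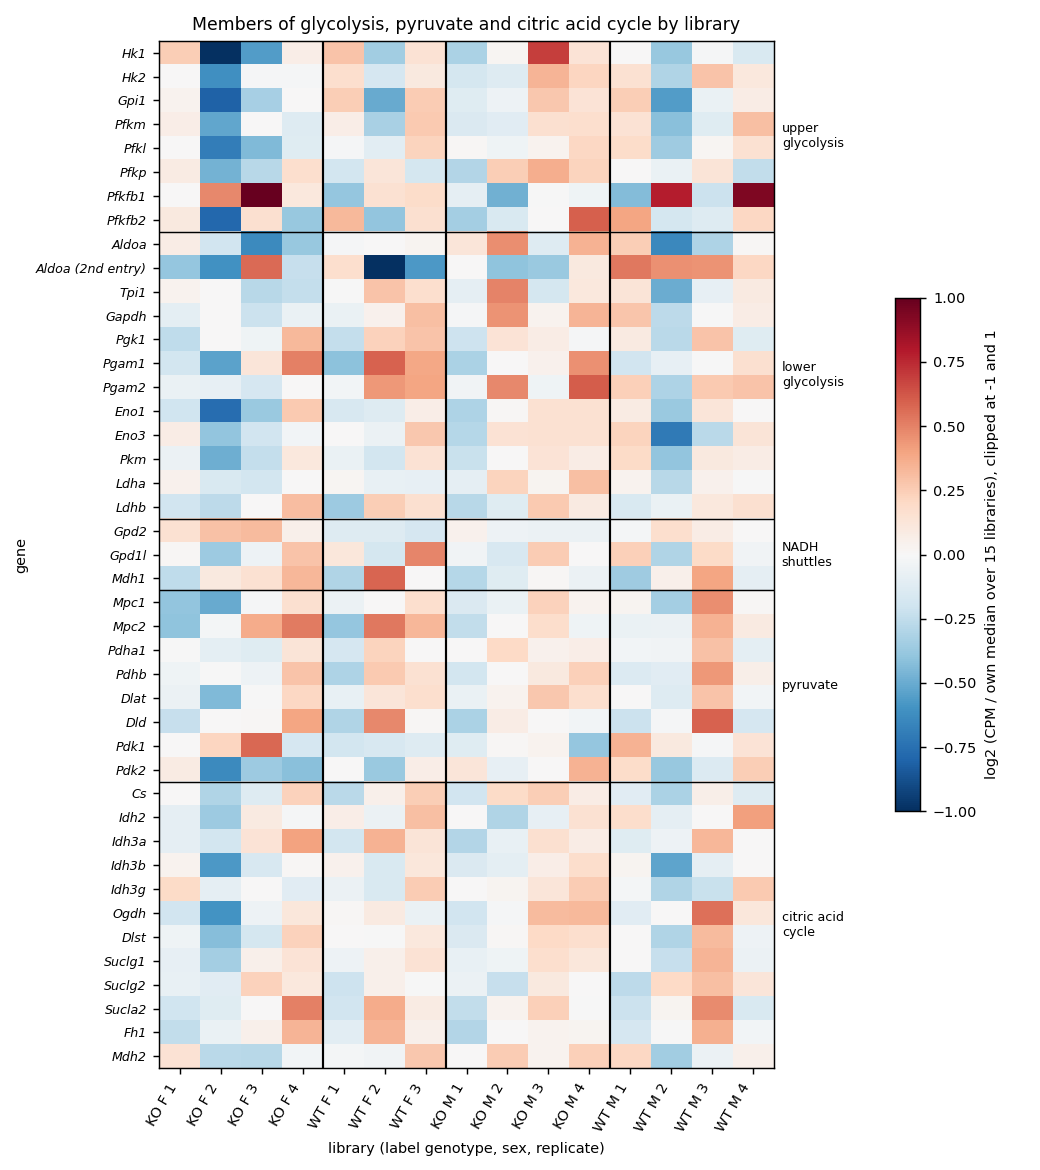
Level of each member (rows, in pathway order) in each library (columns, by label group), as log2 of CPM over the gene's own median across the 15 libraries, with the colour scale clipped at -1 and 1. The column of the KO-labelled female replicate 2 is the bluest, with the lowest value for 19 members, and the row of Pfkfb1 is dark red in the KO-labelled female replicate 3 and the WT-labelled male replicates 2 and 4.

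Between the genotype labels in females, no member passed the test, and most estimates lay slightly below 0. Of 43 members, 38 had a log2 fold change (KO label over WT label) below 0, with a median of -0.13 and a median standard error (SE) of 0.18. Over all tested genes 44.6% lay below 0, with a median of 0.025. edgeR called 0 members at an adjusted p below 0.05 (edgeR adjusted p = 1 for every member), and 0.0% of all tested genes. At an unadjusted p below 0.05 it counted 1 member (Gpd2), against 1.74% of all tested genes. DESeq2 and limma-voom also called 0 members, with 3 and 1 at an unadjusted p below 0.05, against 2.22% and 1.46% of all tested genes. The count of 38 was 37 with a term for the marker level (median -0.13). It came to 26, with a median of -0.020, without the 3 mixed-sex libraries. It came to 29, with a median of -0.037, without the KO-labelled female replicate 2 alone, and to 28, with a median of -0.12, without the WT-labelled female replicate 2. Among the low-marker libraries it was 32, with a median of -0.054, and among the high-marker ones 24, with a median of -0.032. Without the mixed-sex libraries the 5 estimates with the smallest p were 0.33 for Gpd2, 0.33 for Pdk1, 0.65 for Pfkfb1, -0.29 for Pfkl and -0.28 for Pgam2. Of the female libraries, 2 of 4 KO-labelled and 1 of 3 WT-labelled ones were high-marker libraries.

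**Figure D3:**
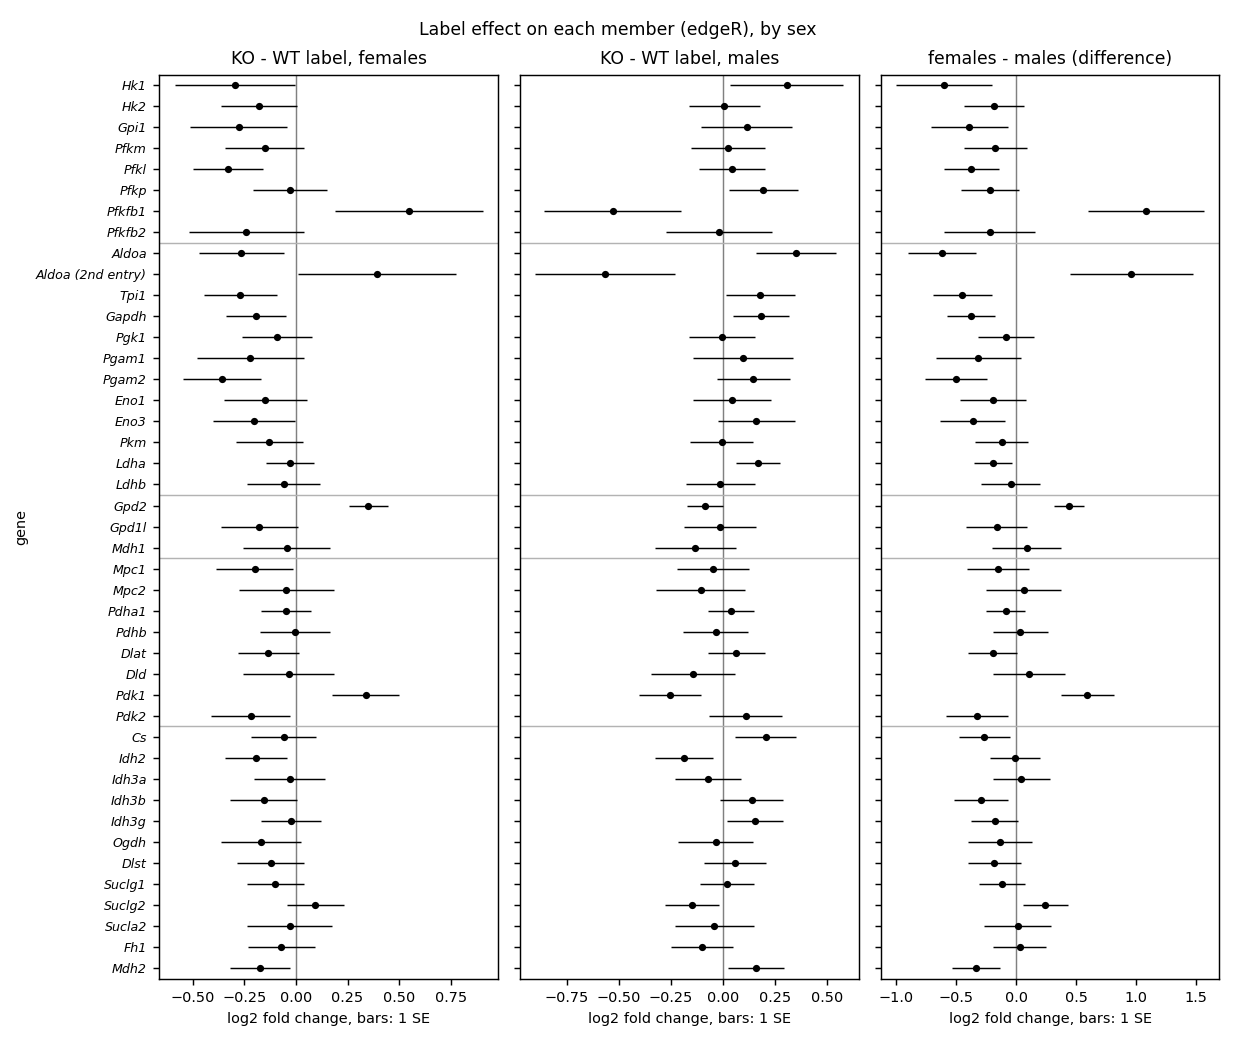
edgeR log2 fold change of each member between the genotype labels (KO minus WT) in females and in males, and the effect in females minus that in males, with bars of 1 SE, in pathway order. In females 38 of 43 points lie below 0, in males 20 of 43 and in the difference 31 of 43, and the 5 above 0 in females are Pfkfb1, the 2nd Aldoa entry, Gpd2, Pdk1 and Suclg2.

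Of the 8 genes from glucose to fructose bisphosphate, 7 had estimates below 0 in KO-labelled females, with a median of -0.21. Pfkl had 21.6, 13.4, 15.9 and 19.9 CPM in the KO-labelled female libraries and 21.5, 20.1 and 25.3 CPM in the WT-labelled ones. Only replicate 1 of the KO-labelled libraries reached the WT-labelled range, and the log2 fold change was -0.33 ± 0.17 (SE). Hk1 had 141, 55.2, 80.7 and 124 CPM in the KO-labelled and 145, 93.1 and 131 CPM in the WT-labelled female libraries. Its values differed by more than 2-fold among the KO-labelled libraries, and the groups overlapped. Hk2 had 202, 132, 200.4 and 200.0 CPM in the KO-labelled and 227, 180.1 and 216 CPM in the WT-labelled female libraries. The KO-labelled replicate 2 stood alone at the low end, and the other 3 lay within the WT-labelled range. The estimates were -0.30 ± 0.29 for Hk1, -0.18 ± 0.19 for Hk2, -0.15 ± 0.19 for Pfkm and -0.028 ± 0.18 for Pfkp. Gpi1, which turns glucose phosphate into fructose phosphate, had -0.28 ± 0.24, and Pfkfb2 -0.24 ± 0.28.

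Pfkfb1 was the exception of this group, at 167, 233, 401 and 181 CPM in the KO-labelled female libraries and 128, 186 and 189.7 CPM in the WT-labelled ones. It encodes the liver and muscle form of the bifunctional enzyme that makes and removes the phosphofructokinase activator. The KO-labelled replicate 3 was far above all other female libraries, the groups overlapped, and the log2 fold change was 0.55 ± 0.36. Without single libraries it ranged from 0.18 to 0.69, and 0.18 is the value without the KO-labelled female replicate 3.

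From fructose bisphosphate to lactate, 11 of 12 entries had estimates below 0 in KO-labelled females, with a median of -0.17. Pgam2 had 18.4, 18.3, 17.1 and 19.3 CPM in the KO-labelled and 18.9, 26.0 and 25.4 CPM in the WT-labelled female libraries. The KO-labelled values were close together, and the WT-labelled replicate 1 lay among them. Its log2 fold change was -0.36 ± 0.19, while that of Pgam1 was -0.22 ± 0.26. Aldoa had 97.6, 81.3, 59.8 and 71.4 CPM in the KO-labelled and 91.9, 92.9 and 94.5 CPM in the WT-labelled female libraries. Of the KO-labelled libraries, 3 were below and 1 was above the narrow WT-labelled range, and the log2 fold change was -0.26 ± 0.21, while the 2nd Aldoa entry, with few reads, had 0.39 ± 0.38. Tpi1, the triose phosphate isomerase, had -0.27 ± 0.18, Gapdh, the step of glycolysis that makes NADH, had -0.19 ± 0.15, and Pgk1, which makes ATP in the next step, had -0.092 ± 0.17. The enolases had -0.15 ± 0.20 (Eno1) and -0.20 ± 0.20 (Eno3), and the pyruvate kinase Pkm had -0.13 ± 0.16. Ldha had 41.4, 36.1, 35.4 and 40.2 CPM in the KO-labelled and 40.8, 38.2 and 38.0 CPM in the WT-labelled female libraries, with an estimate of -0.027 ± 0.12. Ldhb had 224, 214, 257 and 317 CPM in the KO-labelled and 199.8, 304 and 287 CPM in the WT-labelled ones, with an estimate of -0.060 ± 0.18. For both lactate dehydrogenase genes the groups overlapped.

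The 3 genes of the shuttles that move cytosolic NADH gave different estimates. Gpd2, the mitochondrial enzyme of the glycerol phosphate shuttle, which passes electrons from cytosolic NADH to the respiratory chain, had 27.6, 30.3, 30.9 and 25.6 CPM in the KO-labelled female libraries and 22.6, 22.7 and 22.0 CPM in the WT-labelled ones. All 4 KO-labelled libraries lay above all 3 WT-labelled ones, as was so for 0.905% of all tested genes, and Gpd2 was the only member of which this held in females. In 0 members were all KO-labelled values below all WT-labelled ones, against 1.01% of all tested genes. The means were 28.6 ± 2.48 and 22.4 ± 0.374 CPM (SD, n = 4 and 3). The log2 fold change was 0.35 ± 0.093 (SE), or 1.28-fold, the smallest p of the members, with an edgeR adjusted p of 1 over all tested genes. The estimate was 0.34 among the low-marker libraries, 0.37 among the high-marker ones and 0.33 without the 3 mixed-sex libraries, so it was about as large in each. Gpd1l, a cytosolic paralogue of the shuttle's other enzyme, had -0.18 ± 0.19, and Mdh1, the cytosolic enzyme of the malate-aspartate shuttle, had -0.044 ± 0.21.

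Of the 8 genes of pyruvate entry and pyruvate dehydrogenase, 7 had estimates below 0 in KO-labelled females, with a median of -0.048. The exception was Pdk1, a kinase that inactivates pyruvate dehydrogenase and a known target of hypoxia-inducible factor. Pdk1 had 30.2, 35.1, 44.9 and 26.9 CPM in the KO-labelled and 26.6, 27.1 and 27.7 CPM in the WT-labelled female libraries. The KO-labelled values ran widely and replicate 4 lay within the WT-labelled range, with a log2 fold change of 0.34 ± 0.16 that came to 0.16 without the KO-labelled replicate 3. Pdk2, the other kinase, had 41.3, 25.1, 30.4 and 29.2 CPM in the KO-labelled and 39.0, 30.1 and 40.8 CPM in the WT-labelled female libraries, with an estimate of -0.22 ± 0.19. The mitochondrial pyruvate carrier subunits had -0.20 ± 0.19 (Mpc1) and -0.047 ± 0.23 (Mpc2). Within the pyruvate dehydrogenase complex, the catalytic subunits had -0.048 ± 0.12 (Pdha1) and -0.0032 ± 0.17 (Pdhb), the transacetylase Dlat -0.13 ± 0.15 and the shared dehydrogenase Dld -0.036 ± 0.22.

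In the citric acid cycle, 11 of 12 genes had estimates below 0 in KO-labelled females, with a median of -0.085. Cs, the citrate synthase of the entry step, had 145, 118, 133 and 170.1 CPM in the KO-labelled and 120.1, 150.0 and 172 CPM in the WT-labelled female libraries, with an estimate of -0.060 ± 0.16. Idh2, the mitochondrial NADP-dependent isocitrate dehydrogenase, had 176, 146, 199.6 and 186 CPM in the KO-labelled and 196, 180.4 and 231 CPM in the WT-labelled ones, with an estimate of -0.19 ± 0.15. Ogdh had 839, 633, 923 and 1037 CPM in the KO-labelled and 965, 1021 and 912 CPM in the WT-labelled female libraries, with an estimate of -0.17 ± 0.19. The groups overlapped for all 3 genes, and the lowest female value was that of the KO-labelled replicate 2 in each. The exception in direction was Suclg2, the GTP-forming subunit of succinyl-CoA ligase, at 0.095 ± 0.14, while its ATP-forming partner Sucla2 had -0.031 ± 0.21 and the common subunit Suclg1 -0.10 ± 0.14. The subunits of the NAD-dependent isocitrate dehydrogenase had -0.030 ± 0.17 (Idh3a), -0.16 ± 0.16 (Idh3b) and -0.025 ± 0.15 (Idh3g). Dlst, Fh1 and Mdh2, which encode the succinyl transferase, fumarase and the mitochondrial malate dehydrogenase, had -0.12 ± 0.16, -0.070 ± 0.16 and -0.17 ± 0.15.

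In males, the members lay evenly about 0 between the genotype labels. Of 43 members, 23 had a log2 fold change above 0 in the KO-labelled libraries, with a median of 0.019 (median SE 0.17), and 53.0% of all tested genes did, with a median of 0.018. edgeR called 0 members, and 0.0115% of all tested genes. At an unadjusted p below 0.05 it counted 0 members, against 1.42% of all tested genes, and DESeq2 and limma-voom called 0 members, with 0 below that unadjusted p by either, against 2.26% and 1.75% of all tested genes. The count of 23 came to 34 (median 0.094) without the WT-labelled male replicate 3, to 14 (median -0.062) without the WT-labelled male replicate 2 and to 16 (median -0.056) without the 3 mixed-sex libraries. It was 31 with a term for the marker level (median 0.046). Among the low-marker libraries it was 31, with a median of 0.16, and among the high-marker ones 19, with a median of -0.026. Without the mixed-sex libraries the 5 estimates with the smallest p were 0.22 for Aldoa, -0.55 for its 2nd entry, 0.098 for Ldha, -0.27 for Pdk1 and -0.37 for Pfkfb1. Of the male libraries, 2 of 4 KO-labelled and 1 of 4 WT-labelled ones were high-marker libraries.

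Aldoa had the smallest p of the members in males, at 101, 128, 85.1 and 118 CPM in the KO-labelled and 110.3, 59.4, 75.1 and 93.7 CPM in the WT-labelled libraries. The groups overlapped, and the log2 fold change was 0.35 ± 0.19 (SE, edgeR adjusted p = 0.999). It was 0.21 without the WT-labelled male replicate 2 and 0.078 among the high-marker libraries. The 2nd Aldoa entry (ENSMUSG00000114515, chromosome 7, 126800790 to 126809108, minus strand) ends just upstream of the main one (ENSMUSG00000030695, chromosome 7, 126795234 to 126800751, minus strand) and held few reads, 25.4 on average. It had 0.449, 0.339, 0.346 and 0.481 CPM in the KO-labelled and 0.646, 0.617, 0.613 and 0.518 CPM in the WT-labelled male libraries. These groups did not overlap, with all KO-labelled values lower, as for 0.842% of all tested genes, and the log2 fold change was -0.57 ± 0.34. In 0 members were all KO-labelled male values the higher ones, against 0.756% of all tested genes. The entry lies wholly within Fam57b on the opposite strand. Ldha had 37.7, 46.9, 41.1 and 49.6 CPM in the KO-labelled and 41.2, 33.2, 41.5 and 40.1 CPM in the WT-labelled male libraries, with a log2 fold change of 0.17 ± 0.11. The WT-labelled replicate 2 was the lowest, and without it the estimate was 0.091.

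Among the other genes of glycolysis in males, Pfkfb1 and Hk1 had the estimates farthest from 0. Of 8 from glucose to fructose bisphosphate, 6 were above 0, with a median of 0.033. The hexokinases had 0.31 ± 0.27 (Hk1) and 0.0056 ± 0.17 (Hk2), and the phosphofructokinases 0.023 ± 0.18 (Pfkm), 0.042 ± 0.16 (Pfkl) and 0.19 ± 0.16 (Pfkp). Hk1 had 95.2, 120.0, 191 and 131 CPM in the KO-labelled and 119, 91.2, 118 and 107 CPM in the WT-labelled libraries, where the KO-labelled replicate 3 was the highest of all 15. Pfkfb1 had 158, 120.0, 167 and 162 CPM in the KO-labelled and 124, 289, 144 and 319.7 CPM in the WT-labelled libraries. The WT-labelled values fell into a low and a high pair, with 3 KO-labelled values between the pairs and 1 below both, and the log2 fold change was -0.53 ± 0.33. It was -0.29 at its smallest without a single library, the WT-labelled replicate 4, and 0.19 among the high-marker libraries. From fructose bisphosphate to lactate 8 of 12 entries were above 0, with a median of 0.12. The mutases had 0.095 ± 0.24 (Pgam1) and 0.15 ± 0.17 (Pgam2), the enolases 0.042 ± 0.19 (Eno1) and 0.16 ± 0.19 (Eno3), Pkm -0.0067 ± 0.15 and Ldhb -0.014 ± 0.17.

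All 3 genes of the NADH shuttles had estimates below 0 in males, with Gpd2 at 25.5, 23.9, 23.8 and 23.8 CPM in the KO-labelled and 24.4, 27.9, 26.1 and 24.8 CPM in the WT-labelled libraries. The KO-labelled replicates 2, 3 and 4 were below all WT-labelled ones and replicate 1 lay within their range, with an estimate of -0.087 ± 0.085. Pdk1 had 27.7, 30.5, 31.0 and 23.1 CPM in the KO-labelled and 38.4, 32.3, 30.0 and 33.2 CPM in the WT-labelled male libraries. The groups overlapped at about 30.0 to 31.0 CPM, and the log2 fold change was -0.25 ± 0.15, while Pdk2 had 0.11 ± 0.18. Of the 8 genes of pyruvate entry 3 were above 0, with a median of -0.042, among them Pdha1 at 0.040 ± 0.11, while Mpc1 and Mpc2 had -0.049 ± 0.17 and -0.11 ± 0.21. Of the 12 cycle genes 6 were above and 6 below 0, with a median of -0.0084. Cs had 127, 165, 172 and 152 CPM in the KO-labelled and 134, 117, 151 and 133 CPM in the WT-labelled male libraries, and an estimate of 0.20 ± 0.14. Idh2 had 187, 152, 177 and 208 CPM in the KO-labelled and 212, 176, 188 and 249 CPM in the WT-labelled ones, and an estimate of -0.19 ± 0.14. Ogdh had 837, 949, 1194 and 1197 CPM in the KO-labelled and 885, 957, 1404 and 1035 CPM in the WT-labelled ones, and an estimate of -0.036 ± 0.18. The groups overlapped for all 3.

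For the label effect in females minus that in males, the test called 0 members and 0.0% of all tested genes with edgeR. At an unadjusted p below 0.05 edgeR counted 4 members (Gpd2, Pdk1, Pfkfb1 and Aldoa), against 2.49% of all tested genes. DESeq2 and limma-voom called 0 members, with 6 and 3 at an unadjusted p below 0.05, against 3.56% and 2.5% of all tested genes. The estimate was 0.44 ± 0.13 (SE) for Gpd2, 0.59 ± 0.22 for Pdk1 and 1.08 ± 0.48 for Pfkfb1, each more positive in females. It was -0.62 ± 0.28 for Aldoa and -0.50 ± 0.26 for Pgam2, each more negative in females. All 5 had an edgeR adjusted p of 1 over all tested genes. For Gpd2 the estimate was 0.48 among the low-marker libraries and 0.33 among the high-marker ones, and for Pdk1 0.63 and 0.68. For Aldoa it was -0.93 and -0.10, and for Pfkfb1 1.24 and 0.47, so these estimates differed between the subsets. The high-marker subset has 1 library in each WT-labelled group, and whether the differences exceed the spread between libraries was not tested. Over the members, 31 of 43 differences lay below 0 with a median of -0.17, against 47.8% of all tested genes and a median of 0.019. Below 0 lay 34 with a term for the marker level (median -0.20), 32 among the low-marker libraries (median -0.21) and 21 among the high-marker ones (median 0.0018). Without the 3 mixed-sex libraries, 21 lay below 0 and the median was 0.015, with estimates of 0.38 for Gpd2, 0.60 for Pdk1, 1.02 for Pfkfb1, -0.50 for Aldoa and -0.30 for Pgam2.

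**Figure D4:**
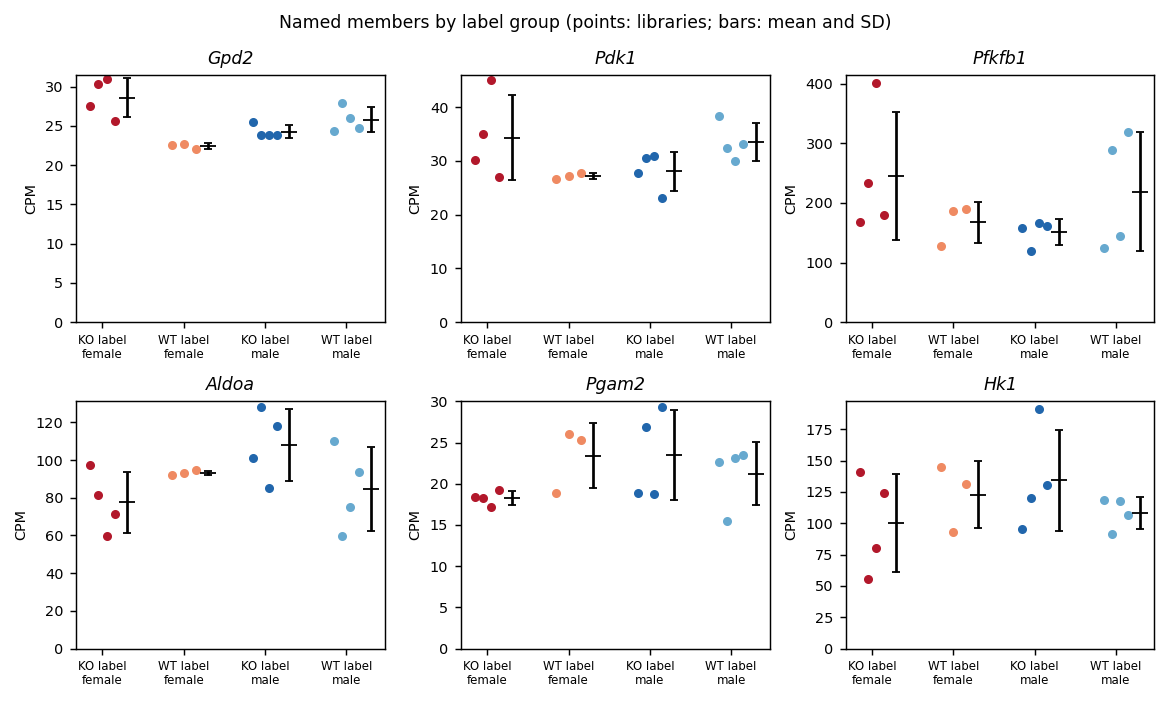
CPM of Gpd2, Pdk1, Pfkfb1, Aldoa, Pgam2 and Hk1 in each library, by label group, with the KO label left of the WT label within each sex; points are libraries, and bars beside them are mean and SD, with each axis starting at 0. For Gpd2 the 4 KO-labelled female libraries (25.6 to 30.9 CPM) lie above the 3 WT-labelled ones (22.0 to 22.7 CPM), and for the other 5 genes the groups of each sex overlap.

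Between females and males under the KO label, edgeR called 0 members, against 0.0229% of all tested genes. At an unadjusted p below 0.05 it counted 5 members (Gpd2, Aldoa, Pdk2, Gapdh and Pfkl), against 6.37% of all tested genes, while DESeq2 and limma-voom called 0 members, with 7 and 5 at an unadjusted p below 0.05, against 8.99% and 7.76% of all tested genes. Over all tested genes DESeq2 called 57 and limma-voom 10. Gpd2 had an estimate of 0.24 ± 0.085 (SE, female minus male). All 4 female values (25.6 to 30.9 CPM) lay above all 4 male values (23.8 to 25.5 CPM), though by under 0.1 CPM, and Pfkfb1 likewise had 167.4 to 401 CPM in females and 120.0 to 166.9 CPM in males, as for 1.26% of all tested genes. In 0 members were all female values the lower ones, against 1.92% of all tested genes. The estimates were -0.48 ± 0.19 for Aldoa, -0.42 ± 0.18 for Pdk2, -0.31 ± 0.14 for Gapdh and -0.35 ± 0.16 for Pfkl, each lower in females (edgeR adjusted p = 0.757 for each of the 5). Gapdh had 65.3, 70.1, 60.3 and 66.8 CPM in the KO-labelled female and 69.4, 95.8, 71.8 and 88.7 CPM in the KO-labelled male libraries, and the groups overlapped only at the highest female and the lowest male value. Of 43 members 30 were lower in KO-labelled females, with a median of -0.15, against 48.0% of all tested genes and a median of 0.015. Without the 3 mixed-sex libraries 26 were lower, with a median of -0.053, and the estimates were 0.21 for Gpd2, -0.50 for Aldoa, -0.32 for Pdk2, -0.34 for Gapdh and -0.23 for Pfkl.

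Between females and males under the WT label, edgeR called 0 members and 0.0% of all tested genes. It counted 2 members at an unadjusted p below 0.05 (the 2nd Aldoa entry and Gpd2), against 2.09% of all tested genes. DESeq2 and limma-voom called 0 members and counted 1 each, against 2.43% and 1.84% of all tested genes. Over all tested genes DESeq2 called 14 and limma-voom 6, and edgeR called 6 without the 3 mixed-sex libraries. Gpd2 had 22.6, 22.7 and 22.0 CPM in the WT-labelled female and 24.4, 27.9, 26.1 and 24.8 CPM in the WT-labelled male libraries, the opposite order from the KO label, with an estimate of -0.20 ± 0.093. All female values of Gpd2, of Pdk1 and of the 2nd Aldoa entry lay below all male values, as did those of 1.89% of all tested genes, with estimates of -0.30 ± 0.16 for Pdk1 and -0.90 ± 0.38 for the Aldoa entry. In 0 members were all female values the higher ones, against 1.06% of all tested genes. Tpi1 had 17.9, 21.8 and 20.1 CPM in the WT-labelled female and 19.6, 12.7, 16.9 and 19.1 CPM in the male libraries, an estimate of 0.23 ± 0.18, and Suclg2 had 196, 234 and 225 CPM and 189, 260.1, 278 and 247 CPM, an estimate of -0.16 ± 0.14. For both genes the groups overlapped. Of 43 members 26 were higher in WT-labelled females, with a median of 0.027, against 49.3% of all tested genes, and 14 were higher without the 3 mixed-sex libraries, with a median of -0.056. The estimates there were -0.17 for Gpd2, -0.32 for Pdk1, -0.58 for the 2nd Aldoa entry, 0.039 for Tpi1 and -0.18 for Suclg2. The count of 26 was 33 among the low-marker libraries (median 0.090) and 11 among the high-marker ones (median -0.10). The 4 comparisons between 2 groups share libraries pairwise, so their values are given side by side and were not set against each other as independent.

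Gpd2 (ENSMUSG00000026827, chromosome 2, 57237635 to 57370719, plus strand) and Pfkfb1 (ENSMUSG00000025271, chromosome X, 150588229 to 150643878, plus strand) had the smallest p and the largest fold change of the members between the labels in females, and their upstream sequences are shown for that reason, with that of Ldha (ENSMUSG00000063229, chromosome 7, 46841475 to 46855627, plus strand) as a member whose window holds the short motif named next. Each sequence is the 250 bases before a RefSeq start on GRCm38.p6, plus strand, and capitals mark ACGTG, the core bound by hypoxia-inducible factor, or its reverse complement CACGT, which overlap where they form CACGTG.
Gpd2, chr2:57237428-57237677: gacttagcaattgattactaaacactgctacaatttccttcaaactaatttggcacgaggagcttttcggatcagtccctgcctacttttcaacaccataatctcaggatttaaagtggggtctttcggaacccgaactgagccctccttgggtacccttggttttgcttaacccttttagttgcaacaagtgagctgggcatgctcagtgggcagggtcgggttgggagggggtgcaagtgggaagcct
Pfkfb1, chrX:150587993-150588242: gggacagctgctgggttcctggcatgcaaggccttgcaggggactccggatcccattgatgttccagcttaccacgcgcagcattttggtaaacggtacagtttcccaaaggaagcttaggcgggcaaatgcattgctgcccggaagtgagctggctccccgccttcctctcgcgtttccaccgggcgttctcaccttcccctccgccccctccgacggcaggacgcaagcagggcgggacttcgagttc
Ldha, chr7:46845554-46845803: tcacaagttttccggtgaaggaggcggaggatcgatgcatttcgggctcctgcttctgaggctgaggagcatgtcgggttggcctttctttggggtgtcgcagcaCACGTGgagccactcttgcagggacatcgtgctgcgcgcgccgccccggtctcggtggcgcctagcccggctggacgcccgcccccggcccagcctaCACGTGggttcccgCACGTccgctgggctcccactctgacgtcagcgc
These RefSeq starts lie downstream of the gene starts given above. The Ldha window therefore lies inside its gene body, and the Gpd2 and Pfkfb1 windows run past their gene starts. The windows of Gpd2 and Pfkfb1 hold no ACGTG on either strand. Promoter windows were found for 41 of 42 member symbols, and 11 of the 41 hold ACGTG on either strand, 26.8% of them, against 16.6% of 32851 windows of the same length. These 11 are Hk2, Pfkm, Pgk1, Pgam1, Ldha, Gpd1l, Mdh1, Pdhb, Pdk2, Idh3g and Ogdh. The estrogen-related receptor motif AAGGTCA is in the window of 1 of 41 members (Eno1), against 4.08% of all windows. The palindrome GNACA, any 3 bases and TGTNC, the shape of site bound by the progesterone receptor and related steroid receptors, is in 0 of 41, against 0.387% of all windows. A match is a run of letters and not a measured site, and no binding was measured here.

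The Pfkfb1 window lies wholly inside the annotated body of Apex2 (chromosome X, 150519519 to 150589868, minus strand), which encodes an endonuclease of base excision repair and runs in the opposite direction over the start of Pfkfb1. Apex2 had 216, 211, 385 and 219.8 CPM in the KO-labelled female libraries and 170.4, 239 and 233 CPM in the WT-labelled ones. In males it had 222, 161, 224 and 201 CPM in the KO-labelled and 179, 288, 242 and 316 CPM in the WT-labelled libraries. The 3 libraries highest for Pfkfb1, the KO-labelled female replicate 3 and the WT-labelled male replicates 4 and 2, were also the 3 highest for Apex2, in the same order. The ratio of Pfkfb1 to Apex2 CPM ran from 0.595 to 1.11 over the 15 libraries, while Pfkfb1 alone ran from 120.0 to 401 CPM. The 2 gene bodies share 1640 bases. The kit marks strand, and the counts were taken by strand: of 850 genes that lie wholly inside a gene of the opposite strand and had a mean of at least 10 counts, 277 held more reads than a gene around them, which whole-gene counts without strand could not give. Whether the 2 genes vary together for a shared reason was not tested. Pfkfb2 shares its strand with Gm29427, which held 919 reads on average against 241 for Pfkfb2, so its level is uncertain.

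**Figure D5:**
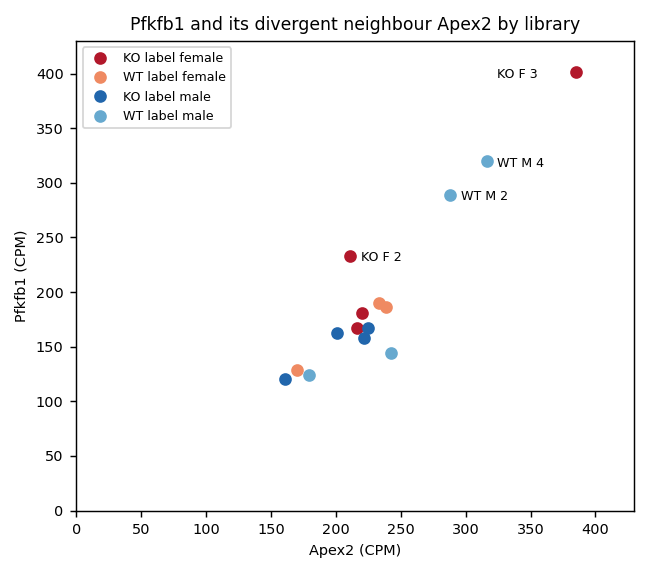
Pfkfb1 CPM against Apex2 CPM in each of the 15 libraries, coloured by label group, with 4 libraries named. The KO-labelled female replicate 3 and the WT-labelled male replicates 4 and 2 are the highest for both genes, and the other 12 libraries lie between 120.0 and 233 CPM of Pfkfb1.

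On TMM library sizes, the split by markers of other cell types separated 3 members. The TMM factors were 1.041 to 1.105 in the 6 high-marker libraries and 0.862 to 1.036 in the other 9. The gaps below depend on that scaling, and other scalings were not examined for them. In the 6 libraries with high endothelial and fibroblast markers, Ldhb had 199.8 to 236 CPM, and in the 9 low-marker libraries it had 246 to 317 CPM. Idh3a had 93.9 to 109 CPM against 111 to 151 CPM, and Suclg2 189 to 217 CPM against 225 to 278 CPM. These 3 members had every high-marker library below every low-marker one, as for 1.08% of all tested genes, and 0 members had every one above, as did 13.6%. The split was made from the libraries' own marker levels, so it describes them and was not tested. The members' summed level was 3895 to 4796 CPM in the 6 libraries and 4512 to 5763 CPM in the other 9. As a share of all counts, without TMM factors, it was 0.430 to 0.516 percent (median 0.482) and 0.439 to 0.541 percent (median 0.506).

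No call was made among other genes of the same pathways either. Of 68 listed genes (further glycolytic enzymes and glucose transporters, regulators of pyruvate dehydrogenase, further cycle and shuttle genes, and transcription regulators of energy metabolism), 60 were tested, and edgeR called 0 in each of the 5 comparisons. At an unadjusted p below 0.05 it counted 1 for the difference between the sexes, 2 between the sexes under the KO label and 2 under the WT label. Of all tested genes, 2.49%, 6.37% and 2.09% did so in the same order. Between the labels in females, 44.6% of all tested genes were lower and 1.74% had an edgeR unadjusted p below 0.05. Of the 60 genes, 28 were higher and 32 lower in KO-labelled females, with 1 at an unadjusted p below 0.05. This was Me2, a mitochondrial malic enzyme that makes pyruvate from malate, with 7.82, 9.004, 8.96 and 6.44 CPM in the KO-labelled and 7.46, 5.69 and 4.59 CPM in the WT-labelled libraries and a log2 fold change of 0.45 ± 0.17. The groups overlapped, and the next was Esrrb, an estrogen-related receptor, at -0.49 ± 0.24. In KO-labelled males 26 were higher and 34 lower, with 0 at an unadjusted p below 0.05. Of all tested genes, 53.0% were higher there and 1.42% had an edgeR unadjusted p below 0.05. The smallest p were those of Idh1, the cytosolic isocitrate dehydrogenase, at -0.32 ± 0.16, and of the pyruvate dehydrogenase phosphatases Pdp1 at -0.46 ± 0.25 and Pdp2 at -0.28 ± 0.19. Of 11 tested genes of pyruvate and pyruvate dehydrogenase outside the members, 9 had estimates above 0 in KO-labelled females and 2 in KO-labelled males. For 18 cycle and shuttle genes these counts were 4 and 10. They were 8 and 7 for 17 genes of glycolysis, and 7 and 7 for 14 transcription regulators. Of all 17455 tested genes, 9668 and 9250 lay above 0 in the same order.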

How the data were processed

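Per the submitters' processing notes, the authors used STAR 2.5.3a and featureCounts 1.5.0 with GRCm38 (mm10). The values deposited are raw read counts for each gene and library, not normalised. Gene length equals end minus start plus 1 in 100% of genes, so counts cover gene bodies, introns included. In R 4.3.3, edgeR 4.0.16 (filterByExpr, TMM, robust quasi-likelihood fit, 4 groups, 11 residual degrees of freedom) tested 17455 genes, with Benjamini-Hochberg adjustment over all of them and calls at an adjusted p below 0.05. Levels are CPM on TMM library sizes. A floor of 3 counts equals 0.0219 to 0.117 CPM, for counting error only. Alternatives were DESeq2 1.42.0, limma-voom 3.58.1 (limma), other scalings and filters, a replicate block, a marker term, subsets of libraries (high-marker, low-marker, without mixed-sex) and each library left out. In every comparison the 5 members with the smallest p were named, with fixed paralogues and entry steps, and in the genotype comparisons the 3 other pathway genes with the smallest p, of which 1 is not reported here. Members and lists were chosen with earlier results of these data known. The deviations of same-numbered libraries had correlations above 0 between the male groups (0.172 to 0.678) and between the sexes under the KO label (0.491 to 0.815). The same held between the sexes under the WT label (0.131 to 0.821), but not throughout between the female groups (-0.40 to 0.69). Every replicate 1 was a high-marker library and every replicate 3 and 4 a low-marker one. Pairs and marker level therefore cannot be told apart here, nor in the replicate block. In none of these cases was the same-numbered library always the best match, so whether numbers mark pairs is not settled. The main fit took no pairs, and the replicate block was run as an alternative. Fits were tested on simulated counts with changes set in the KO-labelled females. Between the labels in females, edgeR called 17 of 67 genes changed 2-fold, 47 of 67 changed 4-fold and 56 of 66 changed 8-fold. It also called 5 unchanged genes. The changed genes were drawn at random from those with a mean of at least 10 counts, so these rates are not those of the members. A member without a call can still differ. RefSeq promoter windows are those of GRCm38.p6.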

Additional observations from a re-analysis of the deposited data

Results flagged for a closer look

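Of 129 groups of 4 libraries, 8 held a library whose gap to its nearest neighbour took most of the group's range, where chance gives about 6.45 at 1 in 20. The KO-labelled female replicate 2 had 131.9 CPM of Hk2, against 200.0 to 202 CPM in the other 3, and the KO-labelled female replicate 4 had 71.9 CPM of Pdhb, against 56.7 to 58.7 CPM. The KO-labelled male replicate 1 stood low for Eno3, at 86.8 CPM against 117 CPM in each of the others, and for Fh1, at 59.2 against 72.4 to 74.3 CPM, and high for Gpd2, at 25.5 against 23.8 to 23.9 CPM. The WT-labelled male replicate 2 stood low for Pgam2, at 15.5 against 22.7 to 23.5 CPM, and for Ldha, at 33.2 against 40.1 to 41.5 CPM, and the WT-labelled male replicate 3 stood high for Pdha1, at 99.1 against 75.6 to 79.3 CPM. Among the named estimates that use these libraries, Ldha between the labels in males came to 0.091 without the WT-labelled male replicate 2, and Gpd2 between the sexes under the KO label ran from 0.19 to 0.29 over the fits without a single library. The cause of these gaps was not tested.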

How the results depend on the processing

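The count of called members was 0 in all 5 comparisons under all alternatives run, with a smallest adjusted p of 0.938 and 0.670 between the labels in females and males, 0.668 for the difference between the sexes, and 0.231 and 0.950 between the sexes under the KO and the WT label. Leaving out each library in turn gave 0 called members throughout. With the replicate block, 0 members were called in each comparison, with 5, 0, 8, 5 and 3 at an unadjusted p below 0.05 in the same order, against 4.61%, 3.62%, 7.32%, 13.1% and 3.39% of all tested genes, and the block changed no call. With it the members below 0 numbered 38 of 43 between the labels in females (median -0.18), 19 in males (median 0.026), 35 for the difference between the sexes (median -0.22), and 30 and 9 between the sexes under the KO and the WT label (medians -0.16 and 0.079). The 25 named estimates had 270 values outside the fits without a single library, of which 3 changed sign, all when the 6 high-marker libraries were fitted on their own, a setting chosen after seeing the data that leaves some groups with 1 library, assumed to vary like the others. These were Pfkfb1 between the labels in males (0.19), and between the sexes under the WT label Suclg2 (0.063) and Tpi1 (-0.12); fewer libraries enter there, and the cause was not tested. No named estimate changed sign without a single library. With 3 or 4 libraries a group, the median SE of a member was 0.17 to 0.18 between 2 groups and 0.24 for the difference between the sexes.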

Other observations

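Pdk4, a kinase that inactivates pyruvate dehydrogenase and is known to follow fasting and fatty acid supply, is no member, and it was named after its values were seen. It had 33.4, 249, 210.3 and 40.8 CPM in the KO-labelled female libraries and 60.4, 182 and 62.2 CPM in the WT-labelled ones, and 76.6, 27.8, 34.0 and 98.3 CPM in the KO-labelled and 50.5, 206, 26.3 and 93.4 CPM in the WT-labelled male libraries. The 4 highest values, 182 to 249 CPM, were those of the 3 mixed-sex libraries and of the KO-labelled female replicate 3. The other 11 libraries lay between 26.3 and 98.3 CPM. Its estimates between the labels were 0.39 ± 0.83 in females and -0.67 ± 0.77 in males, each smaller than its SE.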
